A study of Mus musculus with 192 samples.

Results

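The comparison described here sets zQ175 mice against wild-type (WT) mice when both had been given HTT-634 and HTT-486, a pair of small interfering RNAs (siRNAs) directed at HTT1a, and asks which genotype differences of the hippocampus were present under that pair. It holds 16 of the 192 libraries of the series, chosen by their labelled group: 8 zQ175 mice and 8 WT mice, 4 females and 4 males of each, dosed at 2 months of age with tissue taken at 6 months, a regimen named 2[4]6. zQ175 is a knock-in mouse that has an expanded CAG repeat in the mouse Htt gene. Whether the mice carried 1 or both altered alleles, and how the siRNAs were delivered, is not given in the sources used here. The same regimen has zQ175 and WT groups of 8 mice each given HTT-10150, an siRNA against full-length Htt, given a non-targeting siRNA (NTC), or left untreated, and these libraries share no mouse with the 16. Each library is polyA-selected hippocampal RNA, and its values are estimated counts per gene.

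HTT1a is a short transcript made when the first exon of the gene is not spliced onward, and it encodes the fragment of huntingtin that carries the expanded glutamine tract and aggregates readily. Mutant huntingtin is known to lower transcripts of neuronal identity and synaptic signalling in the brains of knock-in mice, and to raise developmental genes that are normally silent in adult neurons. Brain vessels, which carry many of the results, are lined by endothelial cells joined by tight junctions and wrapped by pericytes, and these cells form the blood-brain barrier.

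Total counts per library ran from 18280276 to 53081445 in the zQ175 mice given the pair and from 8441632 to 40102384 in the WT mice given it. Of the lists of hippocampal field markers, 16 of 16 dentate granule cell genes, 11 of 12 CA1 genes and 15 of 16 CA3 and CA2 genes were matched by name in the table, and every matched gene passed the filter on low counts. Levels are given as CPM, counts scaled to a common library size after TMM scaling between libraries, and 3 CPM values in a row are those of the lowest, the median and the highest of 8 mice. Prox1, the dentate transcription factor, averaged 144.9 ± 15.6 CPM in zQ175 and 131 ± 9.54 CPM in WT (SD, n = 8 each). Markers of choroid plexus and ependyma, tissue that borders the hippocampus, varied widely between mice of both groups, their mean log2 CPM spanning 0.64 to 5.48 in zQ175 and 0.48 to 5.26 in WT, with 0 of 12 members called.

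Under the pair, 355 of 16575 tested genes (2.14%) differed between zQ175 and WT at an adjusted p under 0.05 (edgeR quasi-likelihood test, Benjamini-Hochberg), 110 raised (0.664% of genes tested) and the others lowered (1.48%). Changes were small, with a median size of 0.29 log2 units, and 7 genes changed at least 2-fold. In 354 of the called genes the change had the same sign in females and in males. The genes were called on both sexes together, which largely fixes that count in advance, so it does not show that the sexes agree. In 42 of them the 8 zQ175 values lay wholly on 1 side of the 8 WT values, beside 0.0543% of all genes tested with every zQ175 mouse higher and 0.223% with every zQ175 mouse lower. The share called was 1.14% without zQ175 male_3 and 1.37% without WT male_4.

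Genes of endothelial cells fell together in the zQ175 mice given the pair. Of 13 endothelial markers 10 fell and none rose, and all 13 had a negative change, with a median of -0.39 log2 units against -0.00 over all genes tested. Those that fell span the growth factor receptors, the junctions and the transporters of the barrier. In bulk tissue, fewer cells of a type and less RNA per cell cannot be told apart.

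The letters before the transcription start of 4 of these markers are shown because the genes moved together. They are the 250 bases before the RefSeq start (GRCm38.p6), 5′ to 3′ on the strand of the gene. Of the 10 called markers 8 were in the RefSeq promoter table and 5 of those started within 10 bases of the GENCODE gene start, and 4 of the 5 are given. Capitals mark the letters AGGAAG or CCGGAA, searched on both strands, which hold the core that ETS transcription factors bind. The windows are chr5:147726012-147726261 on the minus strand (Flt1), chr5:75978456-75978705 on the minus strand (Kdr), chr4:94739039-94739288 on the plus strand (Tek) and chr16:18776597-18776846 on the plus strand (Cldn5).
Flt1: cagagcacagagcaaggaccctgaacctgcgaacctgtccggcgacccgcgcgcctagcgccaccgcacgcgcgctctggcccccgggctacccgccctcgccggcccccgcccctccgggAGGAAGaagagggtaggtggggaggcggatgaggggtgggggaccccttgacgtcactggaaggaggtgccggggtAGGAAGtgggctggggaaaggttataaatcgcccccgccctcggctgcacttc
Kdr: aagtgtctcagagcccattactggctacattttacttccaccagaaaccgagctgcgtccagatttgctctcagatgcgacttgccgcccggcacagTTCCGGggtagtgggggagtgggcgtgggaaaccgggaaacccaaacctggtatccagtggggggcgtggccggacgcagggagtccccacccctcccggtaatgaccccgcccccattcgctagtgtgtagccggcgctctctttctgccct
Tek: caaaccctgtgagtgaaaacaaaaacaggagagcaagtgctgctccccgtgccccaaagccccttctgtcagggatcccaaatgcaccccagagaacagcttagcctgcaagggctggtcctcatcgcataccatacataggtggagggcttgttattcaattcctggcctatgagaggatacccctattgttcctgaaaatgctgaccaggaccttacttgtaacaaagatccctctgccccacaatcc
Cldn5: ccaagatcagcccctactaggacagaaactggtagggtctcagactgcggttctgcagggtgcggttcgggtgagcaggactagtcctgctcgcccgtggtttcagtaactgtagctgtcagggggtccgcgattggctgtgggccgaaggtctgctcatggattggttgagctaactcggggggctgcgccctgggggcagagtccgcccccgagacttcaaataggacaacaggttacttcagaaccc

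The window of Flt1 held AGGAAG at 2 places, and that of Kdr held CCGGAA at 1 place, read on the other strand. Neither run of letters was in the windows of Tek and Cldn5. Among 32851 promoters, 29.5% held AGGAAG and 12% held CCGGAA on either strand, and 38.2% held at least 1 of them, so such matches are common. The GC content of the windows was 70.4% for Flt1, 61.6% for Kdr, 51.2% for Tek and 59.6% for Cldn5.

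Among the growth factor receptors, Flt1 (ENSMUSG00000029648, chromosome 5, 147561604 to 147726011, GRCm38), a VEGF receptor that also acts as a decoy, stood at 23.95, 33.9 and 40.5 CPM in zQ175, against 47.6, 50.1 and 58.6 CPM in WT. Every zQ175 mouse lay below every WT mouse. The change was -0.60 ± 0.08 log2 units (SE; adjusted p = 2.53e-06). Kdr, the main signalling receptor for VEGF, had 8.01, 10.8 and 14.5 CPM in zQ175, against 12.5, 13.8 and 16.9 CPM in WT (-0.39 ± 0.07, adjusted p = 0.000883), and the groups overlapped. Tek, the angiopoietin receptor, had 7.11, 10.2 and 11.7 CPM in zQ175, against 11.2, 13.1 and 15.2 CPM in WT, again with overlap (-0.40 ± 0.08, adjusted p = 0.00334).

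The junction genes fell to a similar degree. Pecam1, an adhesion molecule between endothelial cells, had 9.36, 12.6 and 15.7 CPM in zQ175, against 14.3, 17.4 and 20.02 CPM in WT (-0.49 ± 0.07, adjusted p = 2.41e-05). Cdh5, the cadherin of endothelial junctions, had 5.57, 7.33 and 8.85 CPM in zQ175, against 7.85, 9.98 and 11.9 CPM in WT (-0.49 ± 0.09, adjusted p = 0.000565). For Pecam1 1 zQ175 female, and for Cdh5 2 zQ175 females, lay above the lowest WT mouse, which was in both WT female_2, the library of lowest depth. Cldn5, the tight junction claudin, had 15.6, 21.3 and 27.6 CPM in zQ175, against 23.4, 29.1 and 37.99 CPM in WT (-0.42 ± 0.10, adjusted p = 0.00747). Esam, another junction molecule, had a change of -0.23 ± 0.07 and did not pass (adjusted p = 0.0919).

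Transporters of the barrier were lower as well. Abcb1a (ENSMUSG00000040584, chromosome 5, 8660077 to 8748575), the efflux pump P-glycoprotein, had 15.1, 18.8 and 24.02 CPM in zQ175, against 27.1, 29.4 and 32.7 CPM in WT, with no overlap (-0.62 ± 0.09, adjusted p = 7.73e-06). Slc2a1, the glucose transporter, fell by 0.30 ± 0.07 (adjusted p = 0.00698), and Slco1a4, an organic anion carrier, by 0.37 ± 0.09 (adjusted p = 0.0107). Ly6c1, a surface protein of endothelial cells, fell by 0.31 ± 0.07 (adjusted p = 0.00883). Mfsd2a, a lipid carrier, had a change of -0.18 ± 0.09 (adjusted p = 0.348) and Itm2a, a membrane protein, of -0.17 ± 0.06 (adjusted p = 0.124), and neither passed.

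**Figure D1:**
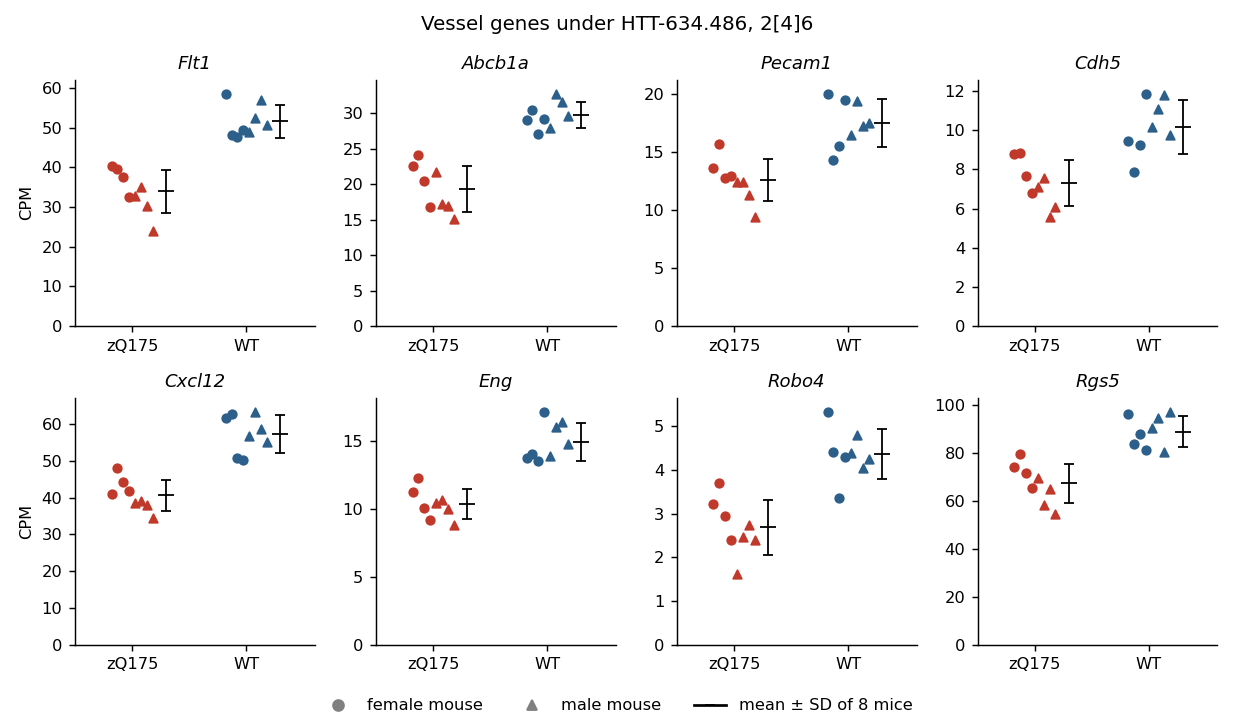
Level of 8 vessel genes in each mouse given HTT-634 and HTT-486, in CPM on axes from 0, zQ175 on the left and WT on the right, circles for females, triangles for males, bars for mean ± SD of 8 mice. For Flt1, Abcb1a, Cxcl12, Eng and Rgs5 all 8 zQ175 mice lie below all 8 WT mice, while the groups overlap for Pecam1, Cdh5 and Robo4.

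Further genes known from endothelial cells, outside the marker list, came in by the rule for named genes, as those of largest change, smallest p or largest difference between treatments. Acvrl1, a receptor for BMP9, had 5.15, 5.99 and 8.25 CPM in zQ175, against 8.21, 9.35 and 11.5 CPM in WT (-0.66 ± 0.09, adjusted p = 1.62e-06), and 1 zQ175 female reached the WT range. Eng, its co-receptor, had 8.803, 10.2 and 12.3 CPM in zQ175, against 13.5, 14.4 and 17.1 CPM in WT, with no overlap (-0.54 ± 0.09). Adgrf5 and Adgrl4, adhesion receptors, fell by 0.59 ± 0.08 and 0.67 ± 0.09, and in both every zQ175 mouse was below every WT mouse. Ptprb, a phosphatase that acts on Tek, fell by 0.60 ± 0.09 (adjusted p = 2.41e-05), Tie1, a relative of Tek, by 0.57 ± 0.09, Robo4, a guidance receptor, by 0.70 ± 0.12, and Podxl, a sialomucin of the vessel lumen, by 0.55 ± 0.09.

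Cxcl12 (chromosome 6, 117168535 to 117181367), a chemokine made by vessels and by some neurons, had the second smallest adjusted p of all genes. It stood at 34.4, 40.05 and 48.2 CPM in zQ175, against 50.4, 57.6 and 63.3 CPM in WT, with no overlap (-0.49 ± 0.06, adjusted p = 7.66e-07). Zfp366, a zinc finger gene of low level, averaged 0.919 ± 0.227 CPM in zQ175 and 1.76 ± 0.403 CPM in WT (-0.94 ± 0.17). Xdh, xanthine dehydrogenase, had 2.11, 3.48 and 3.70 CPM in zQ175, against 3.98, 5.53 and 8.04 CPM in WT (-0.86 ± 0.14, adjusted p = 5.14e-05). Tbx3, a T-box transcription factor, fell by 0.71 ± 0.14 (adjusted p = 0.00156).

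The mural cells that wrap the vessel had fewer calls. Of 10 pericyte and smooth muscle markers 2 fell and none rose, and all 10 had a negative change, with a median of -0.30. Rgs5, a pericyte regulator of G protein signalling, had 54.6, 67.6 and 79.4 CPM in zQ175, against 80.5, 89.2 and 97.01 CPM in WT, with no overlap (-0.40 ± 0.07, adjusted p = 6.67e-05). Abcc9, a subunit of the pericyte potassium channel, fell by 0.41 ± 0.10 (adjusted p = 0.0195), while Kcnj8, the pore of that channel, had a change of -0.00 ± 0.10 and Pdgfrb, the PDGF receptor, of -0.13 ± 0.07 (adjusted p = 0.357). Kcnj8 and Pdgfrb were named after their values were seen, and both lay nearer 0 than the list median. Abcc9 was called in 14 of 16 fits that each left out 1 mouse. Of 18 homeostatic microglia markers 0 were called, and of 16 myelin markers 0, with medians of 0.01 and -0.00. With 2.14% of all genes called, these counts do not set the microglia and myelin lists apart. All 7 blood cell markers had a positive change (median 0.20), and 1 rose. The mean log2 CPM of the 7 spanned 5.71 to 6.40 in zQ175 and 5.23 to 6.16 in WT. Their median was -0.51 in untreated mice, and for 0 of the 7 did the genotype effect differ between the pair and untreated mice. The part of blood cells in the vessel result was not tested.

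Across the regimen, the mean log2 CPM of the 13 endothelial markers was 4.12 ± 0.18 (SD, n = 8) in zQ175 mice given the pair, with a range of 3.77 to 4.34, and 4.50 ± 0.09 in WT mice given it, with a range of 4.38 to 4.62. These groups did not overlap. Under HTT-10150 the means were 4.57 ± 0.11 in zQ175 and 4.45 ± 0.09 in WT, under NTC 4.23 ± 0.13 in zQ175 and 4.41 ± 0.07 in WT, and without treatment 4.43 ± 0.06 in zQ175 and 4.41 ± 0.07 in WT. The lowest zQ175 mouse of the pair was male_4, at 3.77, and the next was female_4, at 4.03. Both have the letter K in the library name, whose meaning is not given in the sources used here. Under NTC the lowest zQ175 mice were again those with K, female_4 at 3.95 and male_4 at 4.16. The zQ175 female_4 libraries of the pair and of NTC also share a number in their names, as do those of male_4. The WT mice of the pair with K stood at 4.45 and 4.48, within the range of their group. The part of the letter and of the number in the vessel result was not tested. In each of 16 fits that left out 1 mouse 10 of the 13 markers were called. In 4 against 4 mice, 0 of the 13 were called in females and 9 in males, and for none of them was the difference between the sexes called.

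**Figure D2:**
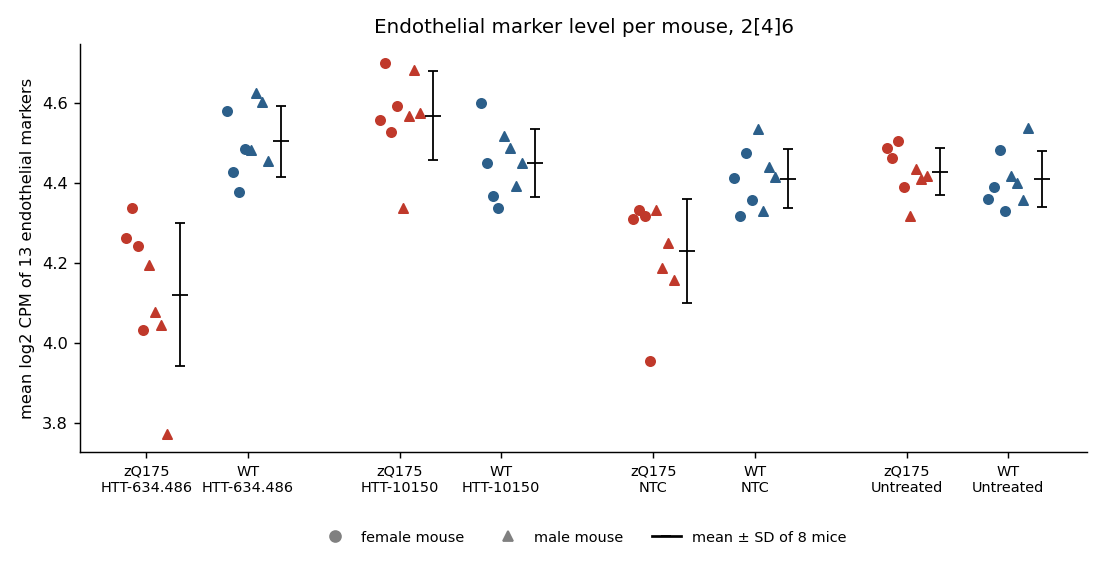
Mean log2 CPM of 13 endothelial markers in each mouse of the regimen, by genotype and treatment, with mean ± SD of 8 mice; the axis does not start at 0. The zQ175 mice given HTT-634 and HTT-486 span 3.77 to 4.34, below all 8 WT mice of the same treatment, and the zQ175 mice given NTC average 4.23, beside 4.57 under HTT-10150 and 4.43 without treatment.

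Whether the genotype effect itself depended on treatment was tested as a difference of differences. Against untreated mice 29 genes differed (0.175% of genes tested), 1 with a higher (0.00603%) and 28 with a lower (0.169%) genotype effect under the pair. The 5 of smallest adjusted p were Zfp366 (-1.46 ± 0.23, adjusted p = 0.000844), Flt1 (-0.69 ± 0.12, adjusted p = 0.00102), Acvrl1 (-0.66 ± 0.12), Eng (-0.64 ± 0.12) and Tie1 (-0.67 ± 0.13). In untreated mice Flt1 stood at 44.3, 46.9 and 58.9 CPM in zQ175, against 36.6, 47.5 and 51.1 CPM in WT, and these groups overlapped (0.09 ± 0.08). Of the endothelial markers Flt1, Cdh5 and Kdr were among the 29, and of the pericyte markers Rgs5. The count was 6 without zQ175 female_4, 6 without zQ175 male_4 and 7 without zQ175 male_3, and it was 12, 10, 7, 7 and 15 without WT female_1, female_4, male_2, male_3 and male_4 in turn.

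Against HTT-10150 the genotype effect differed in 300 genes (1.81% of genes tested), 94 with a higher (0.567%) and 206 with a lower (1.24%) effect under the pair. Flt1 led (-0.99 ± 0.12, adjusted p = 1.01e-07). Under HTT-10150 it rose in zQ175, with 60.7 ± 6.66 CPM in zQ175 and 46.6 ± 5.57 CPM in WT (0.39 ± 0.08, adjusted p = 0.00172). Rgs5 (-0.61 ± 0.09), Eng (-0.79 ± 0.12), Itga6, an integrin of basement membrane contacts (-0.38 ± 0.06), and Zfp366 (-1.53 ± 0.24) were the next 4. Of the 13 endothelial markers 8 differed, all lower under the pair, and of 35 ribosomal protein genes 7 differed, all higher.

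Against NTC no gene differed (0 of 16575, 0% of genes tested) with edgeR, DESeq2 or limma-voom. In edgeR 452 genes had an unadjusted p under 0.05, fewer than the 1 in 20 that chance gives where no effect differs. The standard error of such a difference is wider than that of 1 contrast (0.12 against 0.08 for Flt1), so small differences could go unseen. The difference was -0.42 ± 0.12 for Flt1 (adjusted p = 1) and -0.33 ± 0.13 for Abcb1a (adjusted p = 1). Taken alone, the contrast under NTC had 867 calls (5.23%; 2.25% raised, 2.98% lowered), and 3 of the 13 endothelial markers fell in it, Pecam1 (-0.31 ± 0.07, adjusted p = 0.00547), Kdr (-0.27 ± 0.07, adjusted p = 0.0165) and Abcb1a (-0.28 ± 0.09, adjusted p = 0.0426), with a median of -0.18. Outside that list, Zfp366 (-0.62 ± 0.17, adjusted p = 0.0181), Robo4 (-0.40 ± 0.11, adjusted p = 0.0224), Podxl (-0.28 ± 0.08, adjusted p = 0.0339), Ptprb (-0.30 ± 0.09, adjusted p = 0.0401) and Rgs5 (-0.21 ± 0.07, adjusted p = 0.0487) also fell under NTC. Acvrl1 (-0.19), Eng (-0.20), Tie1 (-0.22) and Adgrf5 (-0.24) had negative changes there that did not pass. The contrast of untreated mice had 688 calls (4.15%; 1.86% raised, 2.29% lowered) and 0 of the 13, with a median of 0.06. That under HTT-10150 had 1093 calls (6.59%; 3.51% raised, 3.08% lowered) and 1 of the 13, Flt1, with a median of 0.17.

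**Figure D3:**
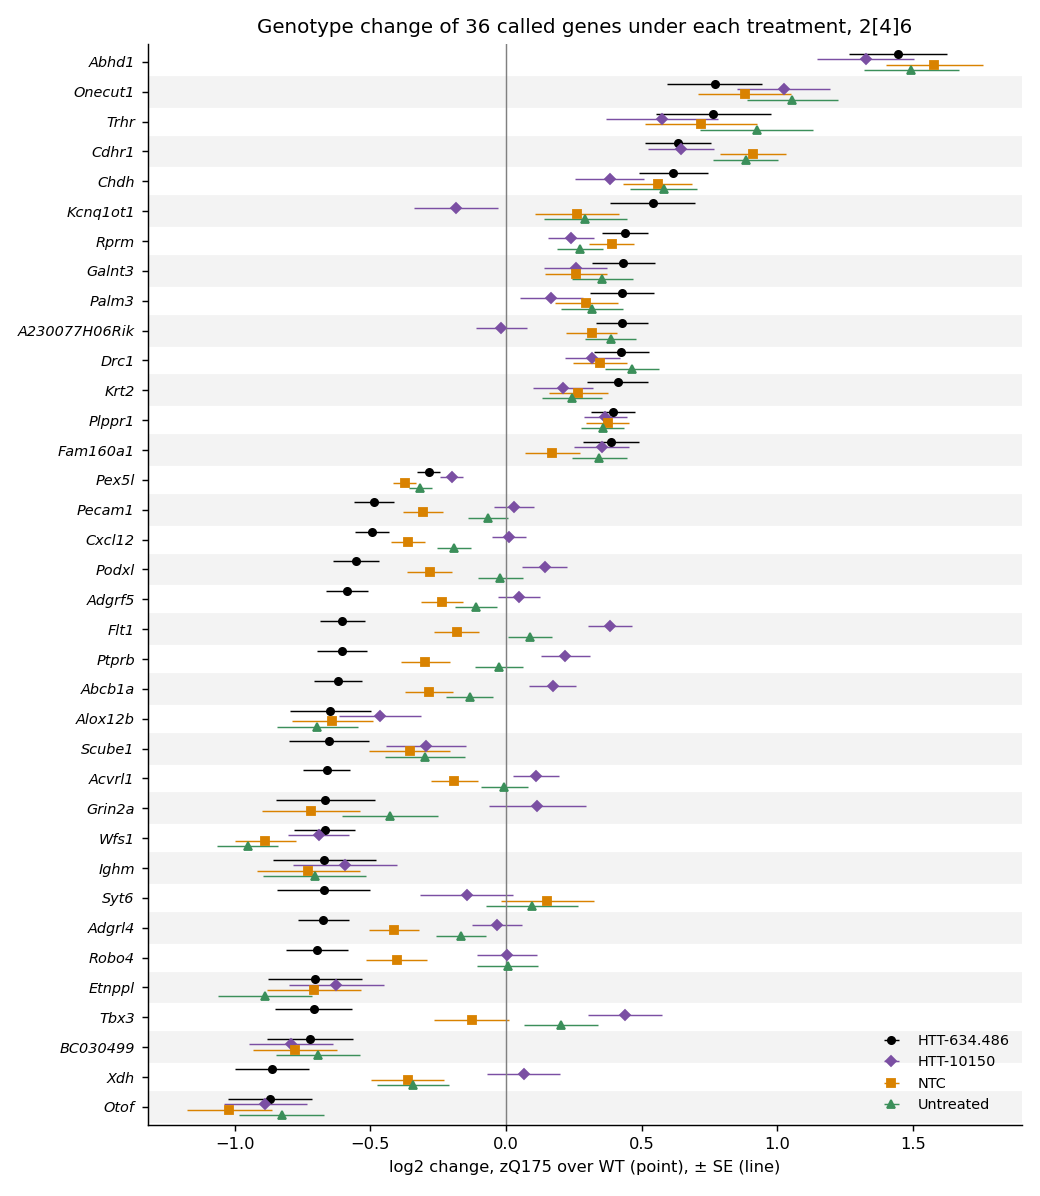
Log2 change of zQ175 over WT, with its standard error, for the most raised genes, the most lowered genes and those of smallest adjusted p under HTT-634 and HTT-486, under each treatment. Robo4 is at -0.70 under the pair, at -0.40 under NTC, and near 0 in untreated mice and under HTT-10150. Abhd1, Wfs1 and Otof lie far from 0 on the same side under all 4 treatments.

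Many of the called genes were shared with the other contrasts, and the counts that follow include the vessel genes. Of the 355 called genes 209 were also called under NTC (58.9% of the 355 and 24.1% of those called under NTC), 155 in untreated mice (43.7% and 22.5%) and 95 under HTT-10150 (26.8% and 8.69%). All of those shared with NTC and with untreated mice, and 85 of those shared with HTT-10150, had the same sign. Of the 355, 97.5% had the same sign under NTC, 83.4% in untreated mice and 64.8% under HTT-10150, beside 70.6%, 64.5% and 50.9% of all genes tested. In all 4 contrasts 74 genes were called, 33 raised and 41 lowered in each.

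Some of the shared genes lie near the altered locus. Within 10 Mb of Htt 8 of 165 tested genes were called (4.85%), 4 raised and 4 lowered. Abhd1 (ENSMUSG00000006638, chromosome 5, 30950066 to 30955091), a hydrolase-fold gene, had 1.99, 6.39 and 7.25 CPM in zQ175, against 1.45, 2.11 and 2.74 CPM in WT. All zQ175 mice but male_1, at 1.99 CPM, were above the highest WT mouse (1.45 ± 0.18, adjusted p = 7.34e-07). The change was 1.33 ± 0.18 under HTT-10150, 1.58 ± 0.18 under NTC and 1.49 ± 0.18 in untreated mice. Drc1, a gene of motile cilia, rose by 0.42 ± 0.10, with every zQ175 mouse above every WT mouse. Otof, otoferlin, a calcium sensor of exocytosis, had 2.79, 3.39 and 4.14 CPM in zQ175, against 5.56, 5.85 and 7.61 CPM in WT, with no overlap (-0.87 ± 0.15, adjusted p = 0.000269). For these genes, sequence differences carried along with the knock-in allele cannot be told apart from the effect of the repeat.

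Wfs1 (ENSMUSG00000039474, chromosome 5, 36966104 to 36989205), which encodes the endoplasmic reticulum protein wolframin and marks CA1 pyramidal cells, lies in the same interval. It had 71.1, 89.1 and 101.9 CPM in zQ175, against 111, 139 and 183 CPM in WT, with no overlap (-0.67 ± 0.11, adjusted p = 0.000114). Its mean in zQ175 mice was 88.7 ± 11.1 CPM under the pair, 78.7 ± 20.6 CPM under HTT-10150, 67.2 ± 10.97 CPM under NTC and 72.5 ± 11.1 CPM without treatment. Of 11 CA1 markers 2 fell, and all 11 had a negative change (median -0.18). The other was Gpr161, a receptor of the primary cilium, with 15.5 ± 3.88 CPM in zQ175 and 21.9 ± 5.14 CPM in WT (-0.50 ± 0.13, adjusted p = 0.0246), called in 11 of 16 fits that left out 1 mouse.

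Among 15 CA3 and CA2 markers 2 fell. Bok, a BCL-2 relative, had 42.4, 48.1 and 51.3 CPM in zQ175, against 55.1, 58.97 and 70.8 CPM in WT, with no overlap (-0.39 ± 0.10, adjusted p = 0.0225), beside -0.75 ± 0.10 under NTC and -0.72 ± 0.10 in untreated mice. The other was Cdh24, a cadherin (-0.37 ± 0.10, adjusted p = 0.0431). Of 16 dentate markers 0 were called, with Plk5, a polo-like kinase, at -0.43 ± 0.13 (adjusted p = 0.0560), beside 1 raised and 5 lowered in untreated mice, but for 0 of the 16 did the genotype effect differ from that in untreated mice or under NTC. Of 18 interneuron markers 1 fell, Reln, the secreted glycoprotein reelin, with 54.01 ± 10.4 CPM in zQ175 and 70.8 ± 5.87 CPM in WT (-0.39 ± 0.09). Bok was called in 14, Cdh24 in 4 and Reln in 15 of 16 fits that left out 1 mouse.

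Of 32 genes for calcium sensors, stores and kinases 7 fell and none rose (median -0.09). Atp2b1, a calcium pump of the plasma membrane, had 731, 804 and 891 CPM in zQ175, against 896, 941 and 1094 CPM in WT, and no zQ175 mouse reached the lowest WT mouse (-0.28 ± 0.05, adjusted p = 0.00114). Atp2a2, the pump of the endoplasmic reticulum, fell by 0.25 ± 0.05 (adjusted p = 0.00100). Itpka, a kinase of dendritic spines, fell by 0.32 ± 0.06, with 176.0 ± 22.1 CPM in zQ175 and 219 ± 13.6 CPM in WT, and Ppp3r1, the regulatory subunit of calcineurin, by 0.20 ± 0.05. The other 3, named after their values were seen, were Itpr1 (-0.24 ± 0.06), Camk2a (-0.27 ± 0.07) and Camkk2 (-0.21 ± 0.06). Of the same list 13 fell and 1 rose under NTC and 11 fell in untreated mice. Under HTT-10150 4 fell and 1 rose. The share of all genes lowered was 1.48% under the pair, 2.98% under NTC, 2.29% in untreated mice and 3.08% under HTT-10150. For no member did the genotype effect differ from that under NTC or in untreated mice, and for 1, Atp2a2, it was lower than under HTT-10150 (-0.25 ± 0.07, adjusted p = 0.0373).

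Pex5l, a regulator of HCN channel trafficking and among the genes of smallest adjusted p, had 169.2, 188 and 211 CPM in zQ175, against 208, 226.3 and 257 CPM in WT (-0.28 ± 0.04, adjusted p = 1.51e-05), beside -0.20 ± 0.04 under HTT-10150, -0.37 ± 0.04 under NTC and -0.32 ± 0.04 in untreated mice. Of 18 postsynaptic scaffolds Dlgap1 (-0.14 ± 0.04) and Homer3 (-0.31 ± 0.09) fell, called in 7 and 5 of 16 fits that left out 1 mouse, and of 29 genes of the vesicle machinery Sv2b fell (-0.29 ± 0.06). Cnih3, an auxiliary subunit of AMPA receptors, rose by 0.26 ± 0.06, with 72.3 ± 5.75 CPM in zQ175 and 60.5 ± 4.61 CPM in WT. Of 44 potassium channel genes Kcnk2, a background channel, rose (0.20 ± 0.04) and Kcnn2, a calcium-activated one, fell (-0.18 ± 0.04). Beside 0.664% of all genes raised and 1.48% lowered, counts of 1 or 2 in lists of this size do not set the lists apart.

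Grin2a, an NMDA receptor subunit, had 10.98, 35.1 and 51.01 CPM in zQ175, against 37.2, 54.9 and 71.7 CPM in WT, and the groups overlapped (-0.67 ± 0.18, adjusted p = 0.0337). Adcy9, an adenylate cyclase, fell by 0.40 ± 0.11 (adjusted p = 0.0324). The zQ175 male_3 mouse was the lowest of the 16 in Grin2a (10.98 CPM), Adcy9 (29.5 CPM) and Reln (35.1 CPM). Grin2a was called in 8 and Adcy9 in 8 of 16 fits that left out 1 mouse, with the highest adjusted p, 0.103 and 0.0987, without WT male_4. Oprd1, the delta opioid receptor, fell by 0.51 ± 0.13, and Syt6, a synaptotagmin, by 0.67 ± 0.17, where WT male_2, at 17.2 CPM, stood above the other WT mice.

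**Figure D4:**
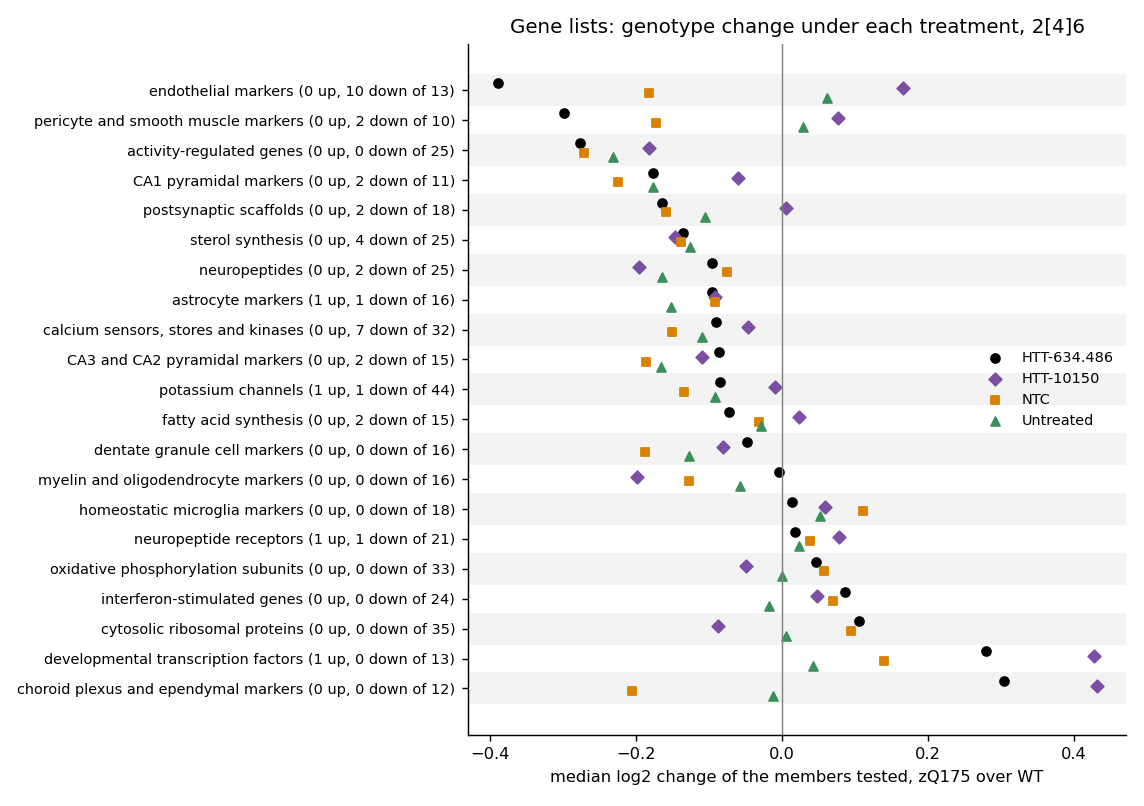
Median log2 change of zQ175 over WT for the tested members of gene lists under each treatment; the labels give how many members were called up and down under HTT-634 and HTT-486. Endothelial markers have a median of -0.39 under the pair, against 0.17 under HTT-10150, -0.18 under NTC and 0.06 in untreated mice, while sterol and activity-regulated genes lie below 0 under all 4.

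Of 25 neuropeptide genes 2 fell, and 8 of the 25 had a positive change. Chgb, secretogranin 1 of dense core vesicles, had 486, 535 and 594 CPM in zQ175, against 632, 670.5 and 761 CPM in WT, with no overlap (-0.34 ± 0.06, adjusted p = 0.000642). The other was Cpe, an enzyme that trims neuropeptides (-0.14 ± 0.03). Of 25 sterol genes 4 fell and none rose, and 24 had a negative change (median -0.13). Among those that fell, Hmgcs1, a synthase of the early pathway, had a change of -0.19 ± 0.05 and Cyp51, a demethylase of its later part, of -0.18 ± 0.05, and they were called in 3 and 4 of 16 fits that left out 1 mouse. The list had 9 lowered under HTT-10150, 8 under NTC and 5 in untreated mice. Of all genes tested 3.08%, 2.98% and 2.29% were lowered there in turn, against 1.48% under the pair.

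Of 15 genes of fatty acid synthesis Acsl3, an acyl-CoA synthetase, had 165, 182 and 197 CPM in zQ175, against 198, 212 and 225.97 CPM in WT, with no overlap (-0.23 ± 0.04, adjusted p = 0.000269), and Acly, which supplies cytosolic acetyl-CoA, fell by 0.12 ± 0.03. Of 16 astrocyte markers 1 rose and 1 fell. S100b, a calcium-binding protein, rose by 0.33 ± 0.07 and Glul, glutamine synthetase, fell by 0.18 ± 0.05. Etnppl, an enzyme of astrocytes that breaks down phosphoethanolamine, fell by 0.71 ± 0.17 (adjusted p = 0.0153).

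Activity-regulated genes, which neurons switch on soon after firing, all had a negative change and none was called. The median of the 25 was -0.28 log2 units. Ptgs2 (-0.30 ± 0.09, adjusted p = 0.0515) and Egr3 (-0.38 ± 0.11, adjusted p = 0.0555) came closest to the threshold. The median was -0.18 under HTT-10150 with 2 called, -0.27 under NTC with 4 called and -0.23 in untreated mice with 5 called. Of all genes tested 6.59%, 5.23% and 4.15% were called there in turn, against 2.14% under the pair.

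Among the raised genes, Onecut1, a transcription factor of early neurons, had 2.20, 4.001 and 4.80 CPM in zQ175, against 1.07, 2.20 and 3.03 CPM in WT, with overlap (0.77 ± 0.17, adjusted p = 0.00679). It was the only call among 13 developmental transcription factors tested, of 30 in the list. Trhr, the receptor for thyrotropin-releasing hormone, rose by 0.77 ± 0.21 (adjusted p = 0.0380), and was called in 8 of 16 fits that left out 1 mouse. Cdhr1, a cadherin best known from photoreceptors, had 8.11, 11.03 and 15.5 CPM in zQ175, against 5.69, 7.32 and 9.21 CPM in WT (0.63 ± 0.12). Chdh, choline dehydrogenase, averaged 13.5 ± 2.93 CPM in zQ175 and 8.76 ± 1.45 CPM in WT (0.62 ± 0.13).

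Rprm, a p53 target that arrests the cell cycle, had 30.2, 35.04 and 38.3 CPM in zQ175, against 22.4, 24.3 and 30.7 CPM in WT (0.44 ± 0.08, adjusted p = 0.000883). Plppr1, a membrane protein of neurite growth, rose by 0.39 ± 0.08. Kcnq1ot1, an imprinted antisense RNA, averaged 59.2 ± 13.5 CPM in zQ175 and 41.2 ± 9.42 CPM in WT (0.54 ± 0.16, adjusted p = 0.0477), beside -0.18 ± 0.15 under HTT-10150. It was called in 5 of 16 fits that left out 1 mouse. Whether counting used strand is not given in the sources used here, so reads of its host gene cannot be told apart from its own.

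**Figure D5:**
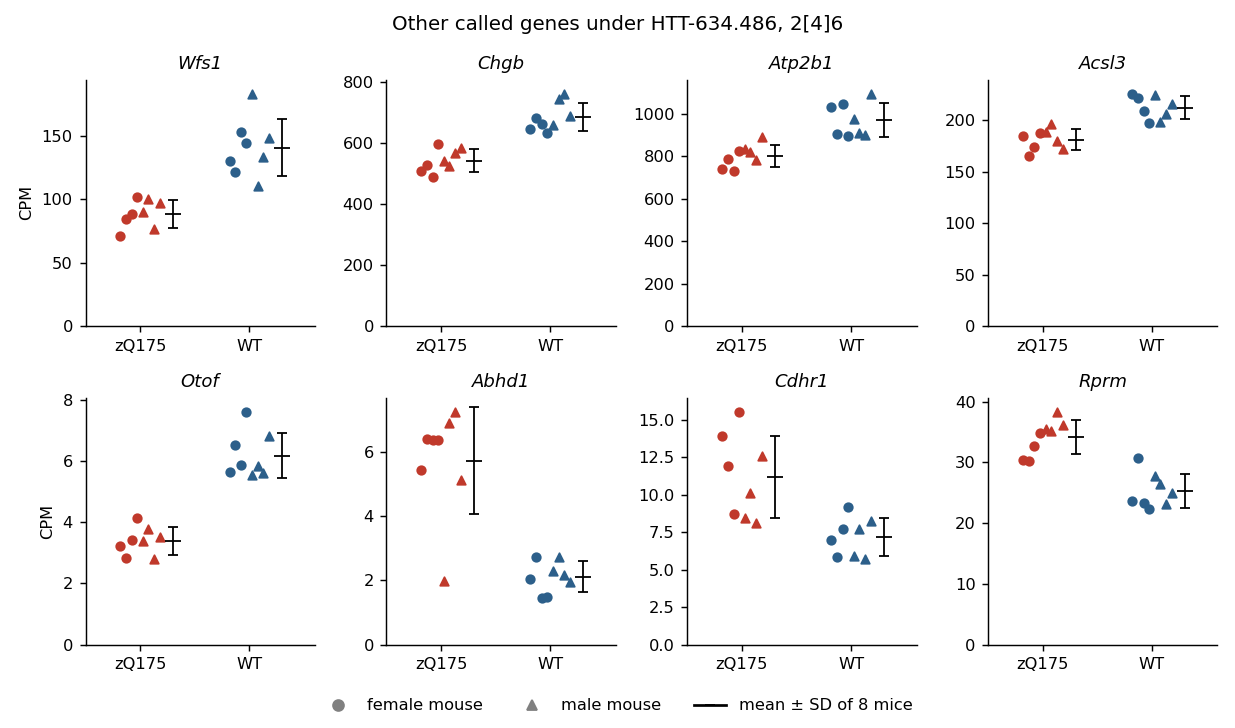
Level of further called genes in each mouse given HTT-634 and HTT-486, in CPM on axes from 0, zQ175 on the left and WT on the right, with mean ± SD of 8 mice. Wfs1, Chgb, Atp2b1, Acsl3 and Otof separate the genotypes without overlap, and Abhd1 does so except for 1 zQ175 male at 1.99 CPM.

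Genes of translation and respiration had small positive changes without a call. All 35 ribosomal protein genes had a positive change, between 0.06 and 0.22 log2 units, with a median of 0.11 and 0 called. Their mean log2 CPM was 7.59 ± 0.08 in zQ175 and 7.48 ± 0.06 in WT (SD, n = 8 each). The median change was -0.09 under HTT-10150, 0.09 under NTC with 5 raised (beside 2.25% of all genes), and 0.01 in untreated mice. Over the 4 treatments these medians were highest where those of the endothelial markers were lowest, and their part in the vessel result was not tested. Of 33 oxidative phosphorylation genes 29 had a positive change and 0 were called (median 0.05).

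Immune and RNA-sensing lists held no call. Beside 2.14% of all genes called, 0 in lists of this size does not set the lists apart. Of 24 interferon-stimulated genes, 15 activated microglia genes, 10 sensors of foreign RNA and 13 genes of the RNA interference machinery 0 were called, with medians of 0.09, 0.10, 0.02 and -0.01. Tyrobp, a microglial adaptor, had a change of 0.25 ± 0.11 (adjusted p = 0.281). Of 14 mismatch repair genes and modifiers of repeat expansion 0 were called, with Msh3, a mismatch repair protein, at 0.11 ± 0.04 (adjusted p = 0.181).

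Htt (ENSMUSG00000029104, chromosome 5, 34761740 to 34912534) was measured as 1 gene count, which does not separate HTT1a from the full-length transcript. It stood at 111, 147.1 and 168.95 CPM in zQ175, against 152.9, 175.837 and 197 CPM in WT, and 5 of 8 zQ175 mice were below the lowest WT mouse. The mean was 144.9 ± 17.9 CPM in zQ175 and 175.815 ± 15.6 CPM in WT (SD, n = 8 each), 17.6% lower (exact two-sided permutation test, p = 0.00249, adjusted over 4 treatments 0.00332). It was 18.6% lower in zQ175 under NTC (exact permutation p = 0.00171) and 15.9% lower without treatment (exact permutation p = 0.000311). Under HTT-10150 it averaged 109 ± 37.2 CPM in zQ175 and 92.9 ± 20.5 CPM in WT (exact permutation p = 0.304). In the edgeR fit across all genes the change under the pair was -0.28 ± 0.11 and did not pass (adjusted p = 0.202). A separate feature of the table, named for Htt with the suffix HD, had 1 to 8 reads in each of the 8 zQ175 libraries and 0 in each of the 8 WT libraries.

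The 16 mice were also placed on the genotype effect of untreated animals, using the 529 genes, 303 of them lowered, called between untreated zQ175 and WT mice fitted alone. The median change in the untreated direction was 0.16 log2 units under the pair, 0.20 under HTT-10150 and 0.24 under NTC, and 95.7%, 98.1% and 99.8% of the genes had that direction. In 443 of the 529 genes (83.7%) the change was smaller under the pair than under NTC, and in 318 (60.1%) smaller than under HTT-10150. Per mouse, the mean over the genes was 0.237 ± 0.024 in zQ175 mice and 0.023 ± 0.025 in WT mice given the pair, and 0.329 ± 0.041 in zQ175 mice and 0.029 ± 0.031 in WT mice given NTC. The zQ175 mice of the pair ranged from 0.215 to 0.293 and those of NTC from 0.246 to 0.371, so that they overlapped. Under HTT-10150 the mean was 0.291 ± 0.094 in zQ175 mice and 0.040 ± 0.036 in WT mice. Those zQ175 mice ranged from 0.211 to 0.512, the highest being female_4, and also overlapped with the pair. Differences between treatments in these values were not tested. With the 204 genes called at an adjusted p under 0.01 the median was 0.21 under the pair, beside 0.24 under HTT-10150 and 0.30 under NTC.

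Females and males were compared within the pair. The genotype effect differed between the sexes in no gene (0% of genes tested) with edgeR, both in the fit of 64 libraries, where 987 genes had an unadjusted p under 0.05, and in that of the 16 alone. In 4 against 4 mice 2 genes were called in females (0.0121%), 1 raised and 1 lowered (0.00603% each), and in males 0.971% of genes, 0.271% raised and 0.7% lowered. Flt1 had a change of -0.45 in females and -0.78 in males (adjusted p of the difference = 0.834), and Wfs1 of -0.68 in females and -0.66 in males.

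In the later regimens the pair was given to other mice, and the genotype contrast was set against that of 2[4]6 in a model of all 192 libraries, in which 2[4]6 had 199 calls (1.2% of 16627 genes tested; 0.397% raised, 0.8% lowered). The regimen 6[4]10, dosed at 6 months with tissue taken at 10 months, had 2532 calls (15.2%; 5.97% raised, 9.26% lowered). The regimen 2.6[8]10, dosed at 2 and 6 months and sampled at the same age as 6[4]10, had 449 (2.7%; 1.05% raised, 1.65% lowered). Against 2[4]6, regimen, age and preparation cannot be told apart. The later regimens share the age of sampling, and they were not tested against each other. The genotype effect differed from that of 2[4]6 in 95 genes in 6[4]10 (0.571%), 53 higher (0.319%) and 42 lower (0.253%), and in 1 gene in 2.6[8]10 (0.00601%), Rgs5 (0.48 ± 0.09, adjusted p = 0.00880).

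The later regimens held no call among the endothelial markers. Of 13 endothelial markers 0 were called in 6[4]10 and 0 in 2.6[8]10, with medians of 0.05 and -0.03, and 4 had a higher genotype effect in 6[4]10 than in 2[4]6. Abcb1a had a change of 0.05 ± 0.09 in 6[4]10 and -0.13 ± 0.09 in 2.6[8]10, and its difference between 6[4]10 and 2[4]6 was 0.66 ± 0.12 (adjusted p = 0.000768). Tbx3 rose by 0.48 ± 0.14 in 6[4]10, a difference from 2[4]6 of 1.18 ± 0.21 (adjusted p = 0.00024). Cxcl12 fell in both, by 0.37 ± 0.07 in 6[4]10 and by 0.38 ± 0.07 in 2.6[8]10.

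Of 32 calcium genes 4 fell and 0 rose in 2[4]6 in this model, 19 fell and 2 rose in 6[4]10, and 12 fell and 1 rose in 2.6[8]10, beside the higher shares of all genes called in both later regimens. The NMDA receptor list had 0, 4 and 0 of 6 lowered in 2[4]6, 6[4]10 and 2.6[8]10, the GABA-A receptor list 0, 6 and 0 of 14, and the neuropeptide list 2, 7 and 2 of 25. The genotype effect of 6[4]10 was lower than that of 2[4]6 in 2 calcium genes, and that of 2.6[8]10 differed from it in 0. Ppp3ca, the catalytic subunit of calcineurin, fell by 0.49 ± 0.06 in 6[4]10, beside -0.07 ± 0.06 in 2[4]6, and that difference passed (-0.43 ± 0.08, adjusted p = 0.000853). Wfs1 fell by 1.10 ± 0.11 in 6[4]10 and by 0.59 ± 0.11 in 2.6[8]10, and its difference from 2[4]6 did not pass in 6[4]10 (adjusted p = 0.170) or in 2.6[8]10 (adjusted p = 1).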

How the data were processed

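PolyA-selected hippocampal RNA of 192 mice was sequenced, and the authors deposited 1 table of RSEM estimated counts per gene (GRCm38), per the submitters' processing notes. All its values were whole, so none was rounded. Of 41128 Ensembl identifiers 40254 were named from GENCODE vM21, and 7 other features, which hold 6.85e-06% of counts, stayed out of library sizes and tests. The 64 libraries of 2[4]6 were fitted together with edgeR 4.0.16 (R 4.3.3; filterByExpr by group, TMM, quasi-likelihood test, 8 groups and sex), with Benjamini-Hochberg adjustment over 16575 genes and a threshold of 0.05. All 8 groups share 1 estimate of spread. Log2 CPM used a prior count of 2. Later regimens were compared in a model of 192 libraries. Htt was tested by exact permutation with scipy 1.17.1 over 12870 splits, whose smallest p is 0.000155. Fits were tested on simulated data.

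Named genes were, among called genes that averaged 1 log2 CPM or more over the 16 mice and changed alike in females and males, the 14 most raised, the 14 most lowered and the next 8 by adjusted p, up to 4 called members of each list (2 where none was called), up to 5 genes per difference, and Htt. Some genes that this rule picks are not reported here. Prox1, Kcnj8, Pdgfrb and the other endothelial markers were named after their values were seen. The members and 46 lists were chosen with earlier results of these data known. Alternatives were limma-voom 3.58.1, DESeq2 1.42.0, other filters, scalings, covariates and leaving out each mouse. A number and a letter in the library names, whose meaning is not given in the sources used here, were tried as a block and a covariate. The labels number the mice of a group 1 to 4 within each sex. Sex-linked genes matched the labelled sex in all 16 mice. Each library was taken as 1 mouse, as the labels number them.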

Additional observations from a re-analysis of the deposited data

Results flagged for a closer look

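In 69 genes (Htt and the called genes of the naming rule that are reported here), looked at in each genotype, there were 6 cases where the highest or lowest of 8 mice stood apart from the other 7 by more than Dixon's 95% limit. Chance gives about 1 in 20, and 138 combinations of gene and group were examined, so 6 cases are no more than chance gives. Among zQ175 mice given the pair, Abhd1 was low in male_1 (1.987 CPM), Acvrl1 high in female_2 (8.253 CPM) and Galnt3 high in male_3 (5.980 CPM). Among WT mice given it, male_2 was low in Oprd1 (6.929 CPM) and high in Scube1 (53.91 CPM) and Syt6 (17.24 CPM).

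The genotype effect under the pair differed from that of untreated mice in 29 genes, with differences of -1.458 log2 units for Zfp366, -0.6936 for Flt1, -0.6555 for Acvrl1, -0.6388 for Eng and -0.6654 for Tie1. It differed from that under HTT-10150 in 300 genes, with -0.9894 for Flt1, -0.6127 for Rgs5, -0.7884 for Eng, -0.3797 for Itga6 and -1.526 for Zfp366. The effect of 6[4]10 differed from that of 2[4]6 in 95 genes and that of 2.6[8]10 in 1.

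The separate feature named for Htt with the suffix HD, which no comparison used, held 30 reads over the 8 zQ175 libraries of the pair and 0 over the 8 WT libraries. What sequence that feature covers is not given in the sources used here.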

How the results depend on the processing

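The share of genes called under the pair, 2.14% in the fit described, was 0.843% with no filter on low counts, 0.860% in a fit of the 16 libraries alone, 1.26% with only the mice whose library name has the letter M, 0.0121% in females and 0.971% in males. It was 2.87% with DESeq2, 2.11% with limma-voom and 3.14% with the choroid plexus level as a covariate, chosen after seeing the data. Leaving out 1 mouse gave 1.14% to 2.87%. Of the 13 endothelial markers 6 were called with the M-letter mice, 7 in the fit of 16, 0 in females and 9 in males, and 10 or 11 under every other alternative run. The 29 genes that differed from untreated mice were 9 with no filter, and 6 to 33 when 1 mouse was left out. The 300 that differed from HTT-10150 were 506 with DESeq2 and 498 with the choroid covariate. No gene differed from NTC under the 10 alternatives run for that difference, which leave out the fit of 16, the M-letter mice and each sex alone, or without any 1 of 32 mice. The untreated signature was 0.213 with genes called at an adjusted p under 0.01. The Htt difference stayed between -19.6% and -14.8% without any 1 mouse. The cause of these shifts was not tested.

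Of 72 called genes that the naming rule picks, 70 were not called in females alone, 44 in males alone, 28 in the fit of 16, 28 in at least 1 fit without a mouse, 17 with no filter and 17 with the M-letter mice, and none changed sign. Among the 16 mice given the pair, female_4 and male_4 of both genotypes have the letter K in the library name and the others M. Mice of the same label were in most cases not alike across genotypes (r from -0.504 to 0.517, over 0.1 in 2 of 8 pairs). Of the zQ175 mice 2 of 8 were closest to their own label, and the fit described did not use the labels as a block. With that replicate block 2.21% of genes were called, 30 genes differed from untreated mice, 381 from HTT-10150 and 0 from NTC. The shallowest of the 16 libraries, a WT one, had 8441632 counts.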
